A study of Mus musculus with 6 samples.

Results

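The Ifi200 family is a cluster of mouse genes for interferon-inducible proteins, several of which bind DNA. The members examined are 7 of the 24421 genes in the count table: Aim2, Ifi204, AI607873, Pyhin1, Ifi203, Mndal and Ifi205. They were chosen by name from the symbol column of the table, with the levels and ratios of these same libraries already known, so the values below are a description and not a test. The current RefSeq symbols are Ifi207 for AI607873 and Ifi209 for Pyhin1.

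The proteins share a HIN domain, which binds DNA, and most also carry a pyrin domain, through which they join signalling assemblies. AIM2 binds DNA in the cytosol and recruits the adaptor Pycard and caspase-1 into an inflammasome, a complex that matures interleukin-1 beta and interleukin-18. IFI204 is linked to type I interferon induction through the adaptor STING (Tmem173), and many genes of the family are themselves transcribed when interferon activates the transcription factor complex called ISGF3, which contains IRF9. That complex binds a DNA element with repeated GAAA letters, the interferon-stimulated response element (ISRE).

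RNA-seq counts of 6 libraries were used, 1 per group, so no difference has a replicate error and the intervals given cover counting error only. Cont BECs were blood endothelial cells from the skin of Tie2-Cre(-); Dot1l 2f/2f embryos at E15.5 (wild type in the labels), and cKO BECs came from Tie2-Cre(+); Dot1l 2f/2f embryos. The Tie2 promoter drives Cre in endothelial cells and also in part of the blood lineage. These cells were sorted as negative for CD45, F4/80 and Lyve1, and RNA of 2 to 3 embryos was pooled in a library. Cultured BECs were the yolk sac line CRL-2581 and cultured LECs (lymphatic endothelial cells) the embryonic dermal line C57-6064L. OE-BECs and OE-LECs carried a lentivirus with guides to the Dot1l promoter and a transcriptional activator fused to dead Cas9, their controls carried empty lentivirus, and all 4 cultured groups were sorted for EGFP and grown in 2 to 3 flasks. The question for each pair was how the genes differed when Dot1l, a histone methyltransferase, was deleted or raised.

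The libraries held 8863349 (Cont BECs, skin) to 31032461 (OE-LECs) counted reads. Dot1l had 762 and 944 reads in Cont and cKO BECs from skin, a log2 ratio of -0.07 (95% interval -0.21 to 0.07), and counts per whole gene do not show whether the floxed part was lost. By normalized counts Dot1l was 2.78-fold higher in OE-BECs and 2.30-fold higher in OE-LECs than in their controls. Blood endothelial markers were present in every library (Pecam1 had 8317 to 35537 reads). The lymphatic marker Prox1 had 0 reads in all 4 cultured libraries, LECs included, and 1304 and 883 reads in Cont and cKO BECs from skin. The lymphatic markers Lyve1 (52184 and 60898 reads in Cont and OE-LECs, 10680 and 14786 in cultured Cont and OE-BECs) and Flt4 (1369 to 4038 reads) were present in all 4. The other lymphatic markers listed were absent or nearly so in the LECs: Pdpn and Ccl21a had 0 reads in Cont and OE-LECs, and Reln had 1 read in each.

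All 7 members lie on mouse chromosome 1 within 682 kb, chr1:173349547-174031755 (GRCm38, the mm10 build). Aim2 (chr1:173349547-173466040, plus strand) is at one end, followed by Pyhin1 (chr1:173630859-173647928, plus strand), AI607873 (chr1:173723424-173741831, minus strand) and Ifi204 (chr1:173747293-173767069, minus strand). Mndal (chr1:173857215-173880382), Ifi203 (chr1:173920400-173942866) and Ifi205 (chr1:174011998-174031755) follow, all on the minus strand. All are annotated as protein-coding. Of the nearest annotated genes with at least 10 reads, Fcer1a, Ackr1 and Cadm3 before the cluster and Olfr433 and Fmn2 after it had at most 1 read in any cultured library.

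Promoters were read for the 6 members that the RefSeq promoter table (GRCm38.p6) holds, with 300 bases per start site. Ifi204 has no entry. The letters GAAANNGAAA, the core of the ISRE, were found on either strand in 4 of these 6 members, AI607873, Ifi203, Ifi205 and Mndal, and in 3.44% of the 32851 mouse promoters in the table. The member count is per gene, at any of its start sites, while the share is per promoter. The 6 members have 8 start sites, and the first start site of Ifi203 does not hold the core. The following windows of 30 bases show the core in capitals with 10 bases on either side, read 5′ to 3′ on the strand of the gene. They are shown because letters around the core are shared by some of the genes, though not by all. Ifi203 and Mndal are identical over the 30 bases, as are Pydc3 and Pydc4, while AI607873 differs from the others after the core.
AI607873: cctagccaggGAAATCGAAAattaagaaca
Ifi203: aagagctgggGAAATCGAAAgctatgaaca
Mndal: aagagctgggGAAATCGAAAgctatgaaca
Ifi205: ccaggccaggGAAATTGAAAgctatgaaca
Mnda: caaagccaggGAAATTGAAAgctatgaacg
Pydc3: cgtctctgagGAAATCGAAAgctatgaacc
Pydc4: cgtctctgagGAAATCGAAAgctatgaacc

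The windows lie at chr1:173741831-173741860 for AI607873, chr1:173942508-173942537 for Ifi203, chr1:173880204-173880233 for Mndal and chr1:174031870-174031899 for Ifi205, all on the minus strand. The core began 41 bases before the start site of AI607873, 36 before that of Mndal, 35 before the second start site of Ifi203 and 134 before that of Ifi205. Mndal (54 bases before its second start site) and Ifi205 (23 bases after its start site) each held another copy on the opposite strand. Mnda, Pydc3 and Pydc4 are further genes of the same cluster, and their windows lie at chr1:173913064-173913093 (minus), chr1:173673597-173673626 (plus) and chr1:173599326-173599355 (minus). Of the 7 windows, 5 hold GAAATCGAAA and 2 hold GAAATTGAAA. Of the 4 further genes of the cluster with a promoter entry, 3 hold the ISRE core, and Ifi202b does not.

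The 150 bases before the start site are given for the 3 members that rose most in OE-LECs (AI607873, Pyhin1 and Ifi203) and for Aim2, which was added after its values were seen because it differed least. The ISRE core is in capitals, and neither Aim2 nor Pyhin1 holds an exact match in the 300 bases searched. Pyhin1 holds taaatcgaaa, which differs from the core in its first letter only. The Aim2 bases searched, chr1:173420354-173420653, lie inside the gene's span, which begins at chr1:173349547, and that end of the span was not searched.
AI607873: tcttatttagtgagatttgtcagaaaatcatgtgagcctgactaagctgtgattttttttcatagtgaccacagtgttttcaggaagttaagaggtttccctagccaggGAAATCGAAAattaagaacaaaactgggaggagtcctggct
Ifi203: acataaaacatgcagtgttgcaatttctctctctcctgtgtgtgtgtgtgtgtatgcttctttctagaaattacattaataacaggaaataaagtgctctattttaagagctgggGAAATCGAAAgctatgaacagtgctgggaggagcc
Pyhin1: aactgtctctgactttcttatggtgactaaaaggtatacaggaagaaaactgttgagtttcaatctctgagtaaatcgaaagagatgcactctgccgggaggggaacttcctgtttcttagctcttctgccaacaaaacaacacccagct
Aim2: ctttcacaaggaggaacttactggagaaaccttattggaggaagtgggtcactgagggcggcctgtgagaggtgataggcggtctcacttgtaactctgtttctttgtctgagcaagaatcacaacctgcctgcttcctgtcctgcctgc

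These lie at chr1:173741810-173741959 (minus strand) for AI607873, chr1:173942493-173942642 (minus) for the second start site of Ifi203, chr1:173630709-173630858 (plus) for Pyhin1 and chr1:173420454-173420603 (plus) for Aim2. Over these 150 bases, Ifi203 and Mndal aligned with 85.7% identity and AI607873 and Mnda with 84.4%, while Aim2 and Ifi203 reached 42.9%. The core of the gamma-activated site, TTCNNNGAA, was in 0 of the 6 members and in 8.30% of all promoters. Among the 4 further genes with an entry it was in 1, Ifi202b. A match is a description of letters and not of binding.

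Aim2, the inflammasome sensor, had nearly the same level in both libraries of each pair. It had 240 and 326 reads in Cont and cKO BECs from skin, which is 27.1 and 29.4 reads per 1000000 reads of the library (CPM). In culture it had 1146 and 1001 reads in Cont and OE-BECs (64.8 and 71.8 CPM) and 1522 and 1738 reads in Cont and OE-LECs (58.3 and 56.0 CPM). The log2 ratios of normalized counts, always the changed library over its control, were 0.06 in cKO BECs (-0.18 to 0.31), 0.19 in OE-BECs (0.06 to 0.31) and -0.04 in OE-LECs (-0.14 to 0.06). The interval held 0 in cKO BECs and OE-LECs, and the largest difference the OE-LEC interval allows is 0.14 on the log2 scale. The cultured levels were all above those of the skin, by 2.39-fold in CPM between the Cont BECs.

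AI607873 had the most reads of the members in both skin libraries and the largest rise of the members in OE-LECs, but not in OE-BECs, where Pyhin1 and Ifi205 had larger ratios. It had 1320 and 1886 reads in Cont and cKO BECs from skin (149 and 170 CPM), 117 and 270 in cultured Cont and OE-BECs (6.62 and 19.4 CPM), and 45 and 727 in Cont and OE-LECs (1.72 and 23.4 CPM). The log2 ratio was 0.14 in cKO BECs (0.03 to 0.24), 1.59 in OE-BECs (1.27 to 1.91) and 3.78 in OE-LECs (3.35 to 4.25). The rise in OE-LECs was 13.8-fold and ranked 2 among the 10503 genes that reached 100 normalized counts in either library of the pair. Even so, the OE-LEC level stayed far below that of either skin library. Cultured Cont BECs had 22.5-fold less AI607873 in CPM than Cont BECs from skin, and Cont LECs 3.84-fold less than cultured Cont BECs.

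**Figure D1:**
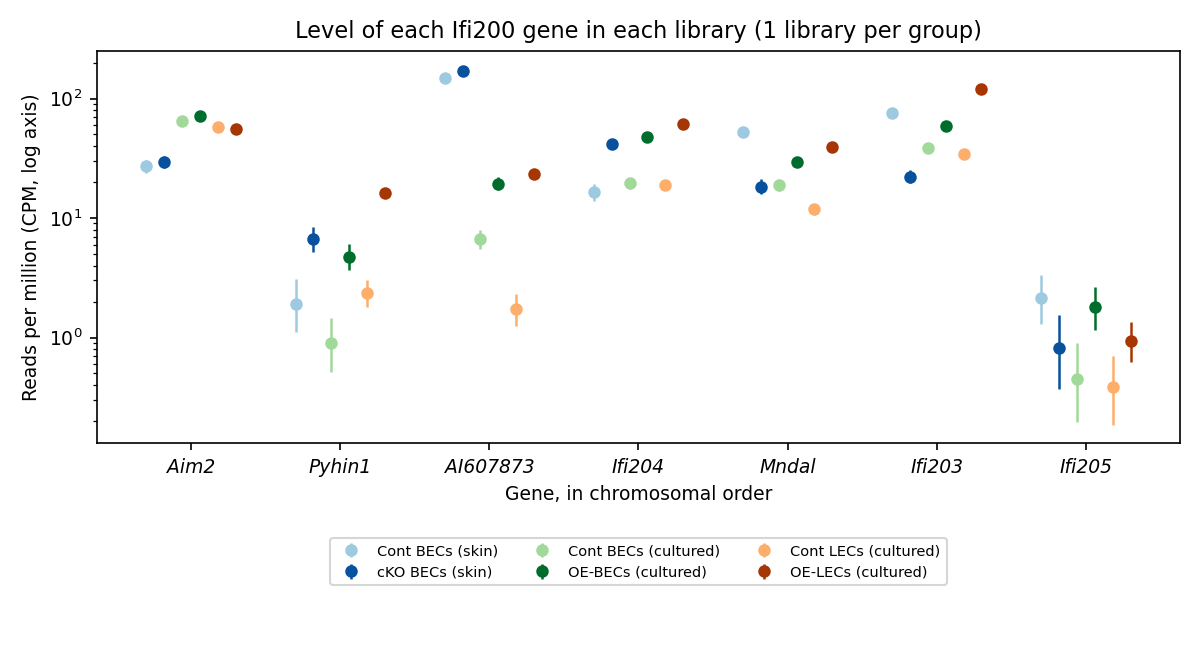
CPM (log axis) of each member in the 6 libraries, 1 point per library, with exact Poisson 95% intervals of the count, genes in chromosomal order. AI607873 spans 1.72 to 170 CPM, high in both skin libraries, while Aim2 stays between 27.1 and 71.8 CPM.

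Ifi204, the sensor linked to STING, was higher in the changed library of all 3 pairs. Its reads were 146 and 461 in Cont and cKO BECs from skin (16.5 and 41.6 CPM), 345 and 663 in Cont and OE-BECs (19.5 and 47.6 CPM), and 492 and 1900 in Cont and OE-LECs (18.8 and 61.2 CPM). The 3 control libraries lay close together and all 3 changed libraries lay above them. The log2 ratios were 1.28 in cKO BECs (1.01 to 1.56), 1.33 in OE-BECs (1.13 to 1.52) and 1.72 in OE-LECs (1.57 to 1.86).

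Pyhin1 was also higher in all 3 changed libraries, at a lower level. It had 17 and 74 reads in Cont and cKO BECs (1.92 and 6.68 CPM), 16 and 66 in cultured Cont and OE-BECs (0.905 and 4.74 CPM), and 61 and 502 in Cont and OE-LECs (2.34 and 16.2 CPM). It was the only member past the 3-fold rule described below in all 3 pairs, with log2 ratios of 1.74 (0.97 to 2.60), 2.43 (1.62 to 3.32) and 2.81 (2.42 to 3.22). The OE-LEC rise was 7.01-fold and ranked 8 of 10503.

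Ifi203 and Mndal were lower in cKO BECs and higher in both overexpressing lines. Ifi203 had 672 and 246 reads in Cont and cKO BECs (75.8 and 22.2 CPM), 677 and 823 in Cont and OE-BECs (38.3 and 59.1 CPM), and 896 and 3697 in Cont and OE-LECs (34.3 and 119 CPM). Mndal had 462 and 203 reads (52.1 and 18.3 CPM), 331 and 409 (18.7 and 29.4 CPM), and 308 and 1216 (11.8 and 39.2 CPM) in the same pairs. The OE-LEC library had the highest Ifi203 of all 6 and the cKO library the lowest.

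The log2 ratio of Ifi203 was -1.83 in cKO BECs (-2.04 to -1.61), 0.66 in OE-BECs (0.52 to 0.81) and 1.81 in OE-LECs (1.71 to 1.92). Those of Mndal were -1.56 (-1.81 to -1.32), 0.69 (0.48 to 0.90) and 1.75 (1.57 to 1.94). Ifi205 was near the limit of detection, with 19 and 9 reads in Cont and cKO BECs, 8 and 25 in Cont and OE-BECs and 10 and 29 in Cont and OE-LECs. Its log2 ratios had the same signs as those of Ifi203 and Mndal, at -1.46 (-2.78 to -0.24), 2.03 (0.83 to 3.39) and 1.31 (0.23 to 2.51).

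**Figure D2:**
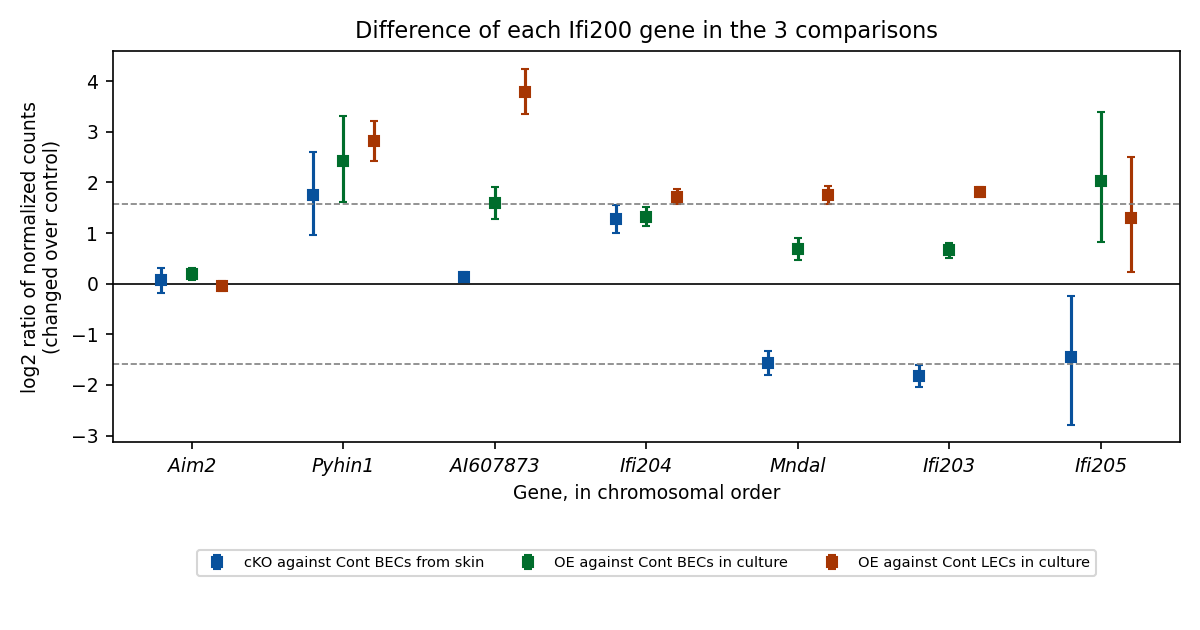
Log2 ratio of normalized counts of each member, changed library over control, in the 3 comparisons, with exact 95% counting intervals; the dashed lines mark 3-fold. In OE-LECs (orange) 6 of 7 members lie above 0 and Aim2 at -0.04, while in cKO BECs (blue) Mndal, Ifi203 and Ifi205 lie below 0 and Pyhin1 and Ifi204 above it.

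The study's rule calls a gene that differs by more than 3 times between the normalized counts of a pair, provided the larger of these reaches 5 in the cKO pair or 3 in an OE pair. In cKO BECs 1 of 7 members was called up (Pyhin1), where 5.17% of 15993 genes were called up, and 1 was called down (Ifi203), where 2.41% were called down. Ifi203 was inside the rule at 3.55-fold and Mndal just outside it at 2.96-fold. Pyhin1 was inside it at 3.35-fold on 17 and 74 reads, and its interval of 0.97 to 2.60 on the log2 scale reaches below the rule. In OE-BECs 3 of 7 were called up (Pyhin1, Ifi205 and AI607873, the last at 3.01-fold) against 8.02% of 14792 genes, and 0 were called down against 5.27%. In OE-LECs 5 of 7 were called up (AI607873, Pyhin1, Ifi203, Mndal and Ifi204, from 3.29-fold) against 2.77% of 13883 genes, and 0 were called down against 2.09%. All 7 members passed the minimum count in each pair. The median log2 ratio of the members, with 1 added to both counts, was 0.06, 1.32 and 1.75 in the 3 pairs, and that of all genes was 0.00, 0.01 and 0.00. The members were chosen with these ratios known, so the shares are not evidence about the family.

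The difference from control was larger in OE-LECs than in OE-BECs for some members and not for others. The log2 ratio in LECs minus that in BECs was 2.19 for AI607873 (1.66 to 2.73), 1.15 for Ifi203 (0.97 to 1.33), 1.06 for Mndal (0.79 to 1.34) and 0.39 for Ifi204 (0.16 to 0.63). For Pyhin1 it was 0.38 (-0.48 to 1.25) and for Ifi205 -0.72 (-2.23 to 0.79), both with intervals that hold 0. Aim2 went slightly the other way, at -0.23 (-0.38 to -0.07). These intervals cover the counting error of 4 libraries only.

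The members that carried the family differed between skin and culture. The 7 genes together had 324 and 289 CPM in Cont and cKO BECs from skin, 149 and 234 CPM in cultured Cont and OE-BECs, and 128 and 316 CPM in Cont and OE-LECs. AI607873 took 45.9% of these reads in Cont BECs from skin (Wilson 95% interval 44.1 to 47.7) and 58.8% in cKO BECs, and between 1.35% and 8.29% in culture. Aim2 took 43.4% and 45.7% in the cultured Cont BECs and Cont LECs, 30.7% in OE-BECs and 17.7% in OE-LECs. Ifi203 took the largest share in OE-LECs, 37.7%.

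**Figure D3:**
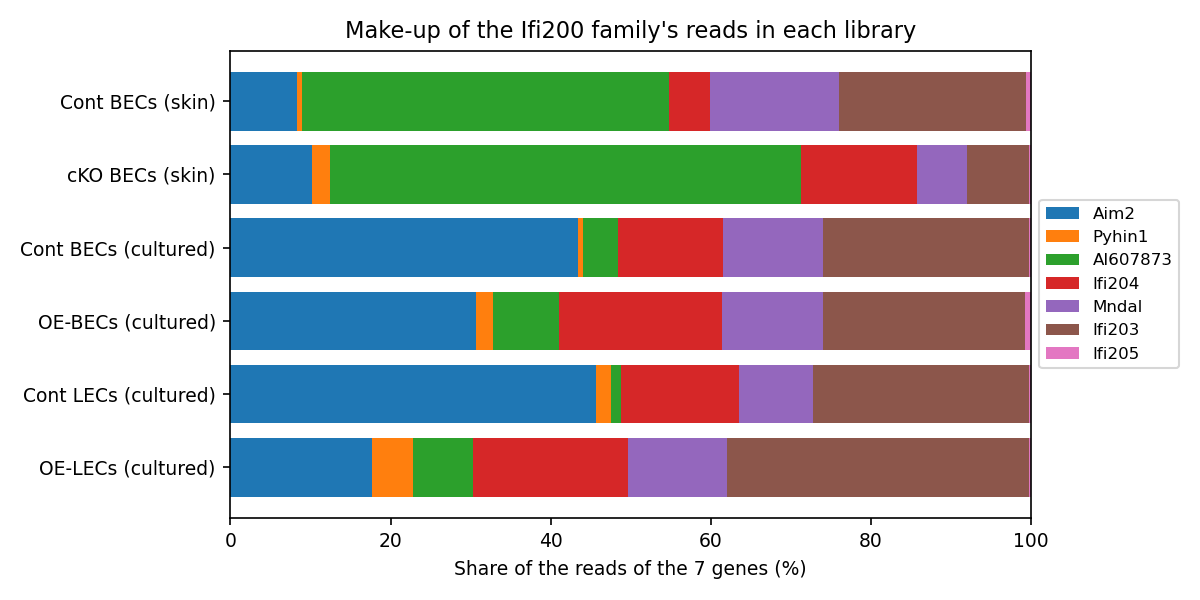
Share of each member in the reads of the 7 genes (%), 1 bar per library, genes in chromosomal order. AI607873 (green) fills 45.9% and 58.8% of the skin bars, and Aim2 (blue) fills 45.7% in Cont LECs and 17.7% in OE-LECs.

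Levels of different genes were compared as CPM per kb of transcript. In Cont BECs from skin the order was AI607873 (43.5), Mndal (25.7), Ifi203 (20.2), Aim2 (9.54), Ifi204 (7.17), Ifi205 (1.33) and Pyhin1 (0.558), and the counting intervals of Aim2 and Ifi204 and of Ifi205 and Pyhin1 met. In cKO BECs Ifi204 came second at 18.1 CPM per kb, and Aim2 and Mndal were not apart. In cultured Cont BECs Aim2 led (22.8), followed by Ifi203 (10.2), Mndal (9.24) and Ifi204 (8.50), whose neighbours did not differ beyond their intervals. In Cont LECs Aim2 led again (20.5), Ifi203 (9.14) and Ifi204 (8.20) were not apart, and Pyhin1, AI607873 and Ifi205 were all below 1. In OE-BECs Aim2 (25.3) was followed by Ifi204 (20.7), Ifi203 (15.7) and Mndal (14.5), the last 2 not apart, and Pyhin1 and Ifi205 were not apart either. In OE-LECs the order was Ifi203 (31.7), Ifi204 (26.7), Aim2 (19.7) and Mndal (19.3), the last 2 not apart, and AI607873 (6.85) and Pyhin1 (4.70) were next. Per kb of coding length Ifi203 ranked first, before AI607873, in Cont BECs from skin, Aim2 came before Ifi204 and Ifi203 before Mndal in cKO BECs, Ifi203 came before Ifi204 in OE-BECs, Aim2 before Ifi204 and Pyhin1 before AI607873 in OE-LECs, and Pyhin1 before Ifi205 in cultured Cont BECs.

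Reads can be shared between members, since several are near copies. All 75-base windows of each gene's longest protein-coding transcript (GENCODE M21) were searched in the transcripts of other genes, 75 bases being the length limit set when the reads were trimmed. Aim2 shared 0% of its windows, AI607873 2.84%, Ifi203 5.19%, Mndal 13.9%, Ifi204 20.7% (17.7% with Mnda), Pyhin1 24.3% (all with Ifi214) and Ifi205 45.2% (all with Mnda). The counts of Ifi205, Pyhin1, Ifi204 and Mndal are therefore less certain than those of Aim2 and AI607873. In the GENCODE annotation Mndal spans 22085 bases of Ifi203 and 16702 of Mnda on the same strand, and the RefSeq spans of these genes do not overlap.

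The table also holds 5 further genes listed for this locus: Ifi202b, Mnda (Ifi211), Pydc3 (Ifi208), Pydc4 (Ifi213) and BC094916. No position was found for BC094916, so its place in the locus was not checked. Ifi202b, whose protein has HIN domains but no pyrin domain, shared 0% of its windows with other genes. It had 763 and 349 reads in Cont and cKO BECs from skin, 419 and 724 in Cont and OE-BECs, and 898 and 4128 in Cont and OE-LECs. Its log2 ratios of -1.51 (-1.69 to -1.32), 1.17 and 1.97 (1.86 to 2.08) had the signs of Ifi203, Mndal and Ifi205. Ifi202b lies between Ifi203 and Ifi205.

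Mnda had 123 and 129, 193 and 328, and 142 and 612 reads in the 3 pairs, with log2 ratios of -0.31 (-0.68 to 0.06), 1.15 and 1.88. Pydc3 rose in OE-LECs from 25 to 136 reads, a log2 ratio of 2.21 (1.59 to 2.89), and Pydc4 and BC094916 had at most 8 reads in any library. In OE-LECs 4 of the 5 were called up, against 2.77% of all genes, BC094916 among them from 0 to 5 reads. The other calls among them were Pydc3 (3 and 20 reads) and Pydc4 (2 and 8 reads) up in cKO BECs and Pydc4 (5 and 1 reads) down in OE-BECs, all with a library near the floor of 3 reads. Of all genes, 5.17% were called up in cKO BECs and 5.27% down in OE-BECs. Along the chromosome in cKO BECs, the members and Ifi202b that were lower (Mndal, Ifi203, Ifi202b and Ifi205) stood at one end of the cluster, with Mnda among them at -0.31, and Pyhin1 and Ifi204 stood nearer to Aim2.

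**Figure D4:**
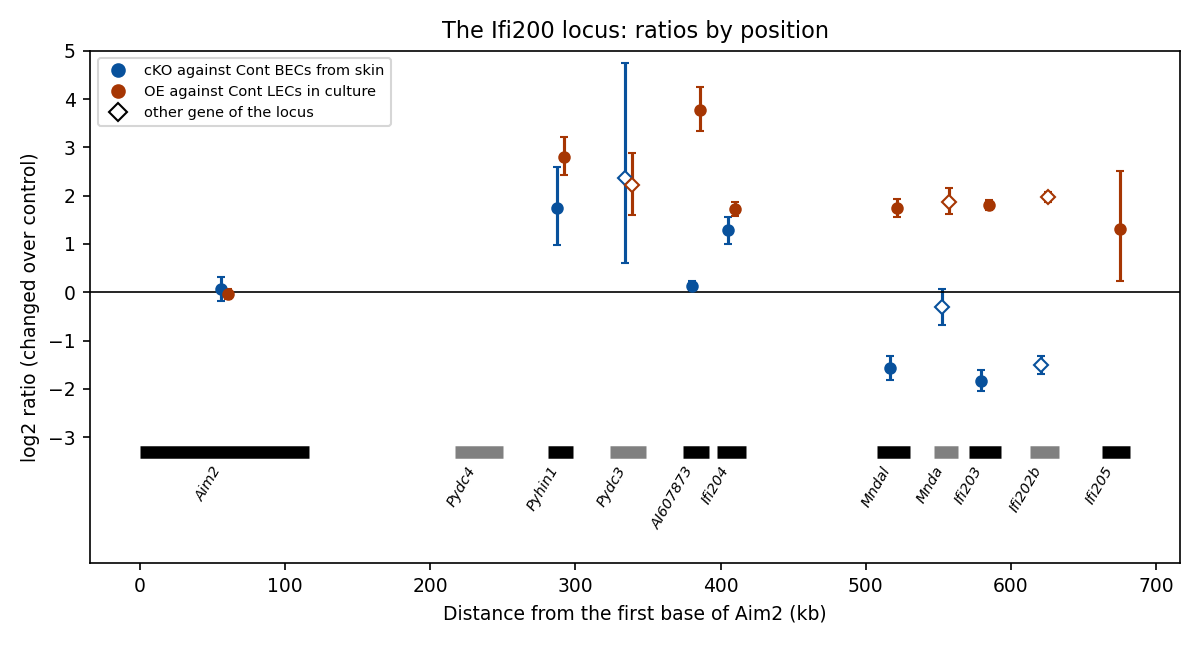
Log2 ratio of each gene against its position, in kb from the first base of Aim2, for cKO BECs (blue) and OE-LECs (orange) with 95% counting intervals; black bars are members, grey bars other genes of the locus, and genes with fewer than 20 reads in both libraries are left out. The cKO values of the members run from 1.74 at Pyhin1 to -1.83 at Ifi203, Pydc3 lies at 2.36 on 3 and 20 reads, and in OE-LECs every plotted gene but Aim2 lies above 1.

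The skin libraries also differed in the markers of other cells. Of 12 macrophage markers 11 were higher in cKO BECs, and their summed level was 3986 CPM in Cont and 6240 CPM in cKO BECs. Adgre1 (F4/80) had 1719 and 3411 reads and Ptprc (CD45) 1206 and 2340, although both proteins were used to remove cells. Lyve1, the third marker used to remove cells, had 9105 and 19959 reads. Of 12 blood endothelial markers 10 were lower in cKO BECs, with summed levels of 6757 and 4410 CPM. Summed levels in Cont and cKO BECs were 2158 and 3061 CPM for mast cell markers (4 of 6 higher). Those of keratinocyte markers were 116 and 216 CPM (4 of 6 higher), and those of fibroblast and pericyte markers 2025 and 1528 CPM (1 of 6 higher). Lymphatic markers had 1953 and 2424 CPM, with 2 of the 5 that had enough reads higher. Of these, Lyve1 (1027 and 1801 CPM) and Pdpn were higher, and Prox1, Flt4 and Reln were lower. Lymphocyte markers had 14.1 and 27.0 CPM, with 3 of the 4 that had enough reads higher, while Cd3e had 39 and 1 reads. Fewer cells of a type and less RNA per cell cannot be told apart in such bulk libraries. These marker values come from the same pair of libraries as the cKO ratios of the members and of the lists given next. Their part in those ratios was not tested. In culture Adgre1 had 0 reads in all 4 libraries and Ptprc at most 9, and the summed macrophage level was 65.0 and 34.4 CPM in Cont and OE-BECs and 94.7 and 82.0 CPM in Cont and OE-LECs, nearly all of it Cd68, a lysosomal protein that is not specific to macrophages.

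Of 16 nucleic acid sensors, adaptors and related genes with enough reads, Tlr3 and Samhd1 among them, 0 were called in either direction in OE-LECs. Their median log2 ratio was 0.32. Of all genes, 2.77% were called up and 2.09% down in OE-LECs, so 0 of 16 is near the share of all genes. Ifih1 (MDA5), an RNA sensor, was just outside the rule there at 2.96-fold (870 and 3023 reads), and was named after its value was seen. Mb21d1 (cGAS), which makes the second messenger for STING, had 438 and 628 reads in Cont and OE-LECs, a log2 ratio of 0.29 (0.11 to 0.47). Tmem173 (STING) had 1290 and 1476 reads there, at -0.04 (-0.15 to 0.07). In cKO BECs 0 of 18 were called, and in OE-BECs 0 up and 1 down of 17 (Zbp1, 23 and 4 reads). The shares of all genes called up and down were 5.17% and 2.41% in cKO BECs and 8.02% and 5.27% in OE-BECs. In OE-BECs Mb21d1 had 186 and 259 reads and Tmem173 646 and 326, at 0.86 and -0.60, and in skin 165 and 167 and 239 and 299 reads.

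Pycard and Casp1, through which AIM2 acts, had few reads in the cultured LECs. Pycard had 262 and 493 reads in Cont and cKO BECs from skin, 90 and 154 in Cont and OE-BECs, and 6 and 3 in Cont and OE-LECs. Casp1 had 252 and 326 reads in skin, 0 and 0 in cultured BECs, and 2 and 3 in LECs, which is at the floor of 3 reads (0.115 and 0.0967 CPM in the LEC libraries). Of 15 inflammasome genes tested in cKO BECs, 1 was called up (Il1a, 2 to 28 reads) and 1 down (Il1b, 77 to 15 reads), both cytokines. In OE-BECs 0 of 11 were called, and in OE-LECs 0 up and 1 down of 11 (Il1a, with 3 and 1 reads). Over all tested genes the cKO pair had 5.17% called up and 2.41% called down. The same shares were 8.02% up and 5.27% down for the OE-BEC pair, then 2.77% up and 2.09% down for the OE-LEC pair. Lists of 11 to 15 genes are too short to differ from such shares by 1 call, so nothing specific to inflammasome genes is read from them.

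Of 30 interferon-induced effectors, the antiviral genes that interferon switches on, 14 were called up and 0 down in OE-LECs. Of all genes, 2.77% were called up and 2.09% down in that pair. Of the effectors 29 were higher, with a median log2 ratio of 1.48. The called genes with the largest folds were these: Oas2, an oligoadenylate synthetase, had 173 and 3261 reads, a log2 ratio of 4.01 (3.78 to 4.23), Oasl1 144 and 1543 at 3.19, and Oas3 425 and 4373 at 3.13. The chemokine Cxcl10 had 27 and 221 reads, at 2.80. In OE-BECs the same 30 genes had 2 called up and 2 down, with a median of -0.02, and Ifi27l2a fell from 873 to 124 reads (-2.43). The 2 called up, on few reads, were Oasl1 (11 and 35) and Cxcl10 (8 and 27), both also called up in OE-LECs. In cKO BECs 0 were called up and 2 down, with a median of -0.10, and Ifi44 fell from 100 to 20 reads (-2.70). The shares of all genes called up and down were 8.02% and 5.27% in OE-BECs and 5.17% and 2.41% in cKO BECs.

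Among interferons, their receptors and ISGF3, 3 of 16 genes were called up in OE-LECs, against 2.77% of all genes. Irf7, a factor that amplifies interferon transcription, had 766 and 5679 reads, a log2 ratio of 2.66 (2.55 to 2.77), Usp18, a brake on the receptor, had 596 and 2841 at 2.02, and the third was Ifnb1 with 1 and 5 reads. Ifnb1 had 0 reads in the other 4 libraries. Irf9 had 847 and 1646 reads (0.73), not past the rule. In OE-BECs Irf9 had 1023 and 669 reads (-0.23) and Irf7 1109 and 1003 (0.24), and of 15 genes 0 were called up and 1 down, Ifne, with 317 and 67 reads. In skin Irf9 had 384 and 358 reads (-0.48) and Irf7 58 and 62 (-0.28), and of 14 genes only Irf1 was called, from 1116 to 429 reads (-1.76). Of all genes, 8.02% were called up and 5.27% down in OE-BECs, and 5.17% and 2.41% in cKO BECs.

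In OE-BECs, then, the members had a median log2 ratio of 1.32 while the effectors had -0.02, and in OE-LECs the medians were 1.75 and 1.48. No test of this difference was made.

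**Figure D5:**
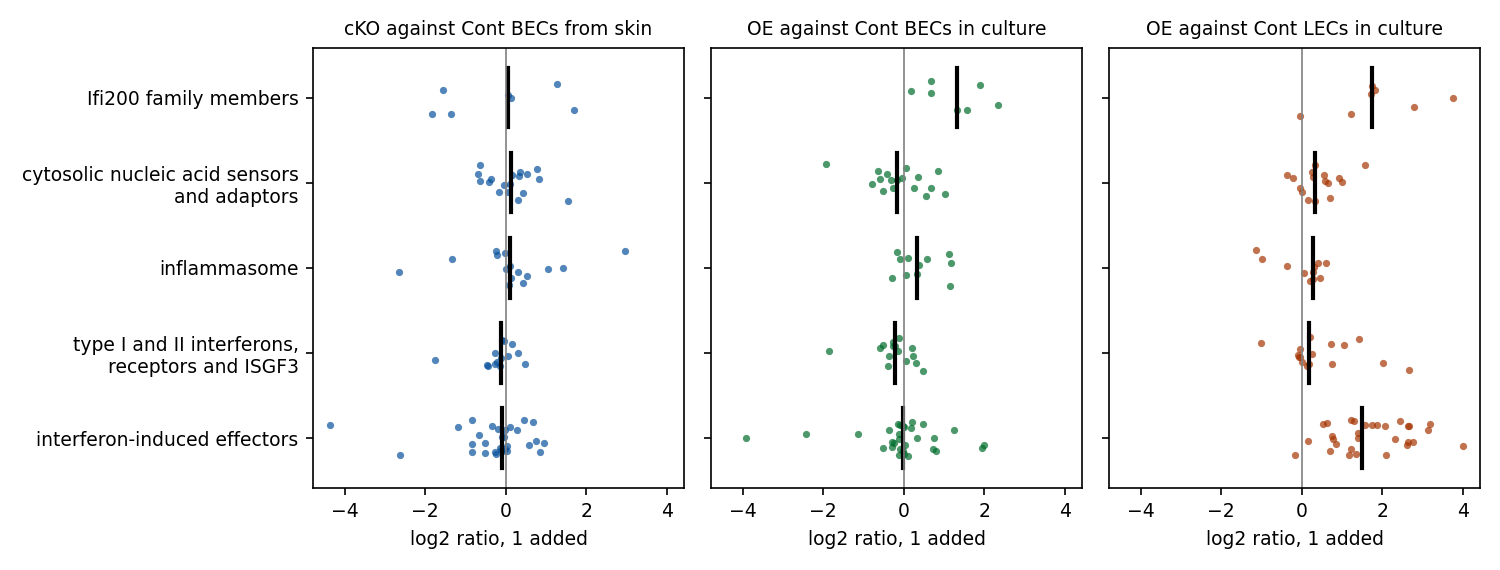
Log2 ratio (1 added to both normalized counts) of every gene with enough counts in the 5 lists, 1 panel per comparison; points are genes, spread vertically for view, and the black lines are medians. The members (top) have medians of 0.06, 1.32 and 1.75, and the interferon-induced effectors (bottom) of -0.10, -0.02 and 1.48.

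The genes whose levels were most like the mean of the members over the 6 libraries were Fmnl2, Sulf1, Cblb, Mief1 and Svil, with Pearson r of 0.939 to 0.889 on log2(CPM + 1) among 13258 genes. The 6 points are the same libraries, mix skin and culture, and differ in depth, so these values only describe the pattern.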

How the data were processed

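Per the authors, ScriptSeq v2 libraries were trimmed with skewer 0.2.2, aligned to mm10 with STAR 2.7.9a and counted per gene with VERSE 0.1.5 and its -S option. The authors deposited raw counts for 24421 symbols, and 4473 of them were at 0 throughout. What this option does is not described in the sources used here, nor how reads with several positions were assigned, which bears on near-identical members.

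Groups came from the sample labels, 1 library each, so no p-value was computed. Counts were scaled by the median of ratios of DESeq2 1.42.0 in R 4.3.3 on each pair. Log2 ratios have exact (Clopper-Pearson) 95% intervals, levels exact Poisson intervals and shares Wilson intervals, for counting error only. A count of 3 reads or fewer was taken as the floor. Total counts were 8863349, 11084686, 17685615, 13933651, 26117161 and 31032461 reads (Cont and cKO BECs from skin, cultured Cont and OE-BECs, Cont and OE-LECs). Intervals were computed with scipy 1.17.1 in Python 3.11.15, and the steps were tested on simulated data.

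All members were named. In each list, called genes with at least 100 normalized counts were named, up to 4 per direction by fold, and genes with a defining role were named whatever their values, apart from some items that are not reported here. Il1a, Il1b, Zbp1, Pydc4 and BC094916, below that minimum, were named after their values were seen. Symbols, positions and promoters came from RefSeq (GRCm38.p6), and transcript lengths from GENCODE M21. The members and lists were chosen with earlier results of these data known. The alternatives were 3 or 4 other scalings, minimum counts, a 2-fold rule, a pseudocount of 1 and the counting interval as a further condition.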

Additional observations from a re-analysis of the deposited data

How the results depend on the processing

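With size factors of all 6 or of the 4 cultured libraries, with total counts or with TMM (edgeR 4.0.16) as the scaling, or with a pseudocount of 1, each of the members' log2 ratios stayed inside its counting interval and none changed sign. The shifts ran from -0.14 to 0.11 on the log2 scale, both with the pseudocount, and from -0.04 to 0.06 with the scalings. With a rule of more than 2 times, 2 members were called up and 3 down in cKO BECs, where the 3-fold rule called 1 and 1. The share of all genes past the 2-fold rule is not given here, so these counts are not a result about the members. The 3 calls up in OE-BECs became 2 with TMM factors, total counts or the pseudocount, since AI607873 is at 3.01-fold. Over all genes in OE-LECs, 385 were called up and 290 down, against 246 and 168 with size factors of all 6 libraries, whose larger values (1.65 and 1.94 in place of 0.923 and 1.08) let fewer genes reach the minimum, while 5 members were called up under each. No paired analysis was possible because each group has 1 library. With 1 library a group the spread between embryos or flasks is unknown, and low counts limit Ifi205 and Pyhin1.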
